A study of Mus musculus with 72 samples.

Results

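The genes described here are the 7 that encode the Kir2 and KATP potassium channels of the mouse, namely the Kir2 pore genes Kcnj2, Kcnj12 and Kcnj4, the KATP pore genes Kcnj8 and Kcnj11, and the KATP receptor genes Abcc9 and Abcc8. They were taken by symbol from a table of 53715 genes counted in 72 bulk RNA-seq libraries, and each was followed through all 12 groups of tissue and genotype. The tissues came from 18 male C57BL/6J mice aged 18 weeks, 6 of each genotype. Gnb5-/- mice carried a constitutive germline deletion in Gnb5, the gene of the G protein subunit Gβ5, Gnb5+/- mice carried it on 1 allele and Gnb5+/+ mice were the wild type. No Cre driver, transgene or agent was used, so the deletion was present in every cell of the Gnb5-/- mice from conception. Both heart chambers were sequenced in each of the 3 genotypes. The brain regions (cerebellum, hippocampus and cerebral cortex) were sequenced only in Gnb5-/- and Gnb5+/+ mice, and every group had 6 libraries. The atria were taken whole, left and right with the nodal tissue, and the ventricles were taken whole, so the nodes could not be looked at on their own.

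Inward rectifier potassium channels pass current more readily into the cell than out of it near the resting potential and hold the membrane close to the potassium equilibrium. Kir2 channels are tetramers that carry the classical inward rectifier current of ventricular muscle and of many neurons, and their subunits can mix within 1 channel. KATP channels join a ring of Kir6 pores to sulfonylurea receptors of the ABC transporter family. They open when ATP falls and ADP rises, and so tie membrane excitability to the energy state of heart muscle, vessels, pancreatic beta cells and neurons. In mouse heart, atrial KATP channels are known to be built with the receptor SUR1 and ventricular channels with SUR2.

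By role, Kcnj2 encodes Kir2.1, the main Kir2 pore of ventricular muscle and the gene of Andersen-Tawil syndrome. Kcnj12 encodes Kir2.2 and Kcnj4 encodes Kir2.3, a Kir2 pore best known from forebrain neurons. Kcnj8 encodes Kir6.1, the pore of vascular KATP channels, and Kcnj11 encodes Kir6.2, the pore of cardiac, neuronal and beta cell KATP channels. Abcc9 encodes SUR2, the receptor of cardiac and vascular channels, and Abcc8 encodes SUR1, the receptor of beta cells and neurons.

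The 4 KATP genes lie in 2 neighbouring pairs, each made of a pore gene and a receptor gene. In the GRCm38 build with GENCODE M21 annotation, Kcnj8 (ENSMUSG00000030247, chr6:142564837-142571614) and Abcc9 (ENSMUSG00000030249, chr6:142587862-142702315) were both on the minus strand, 16.25 kb apart. Kcnj11 (ENSMUSG00000096146, chr7:46093953-46100764) and Abcc8 (ENSMUSG00000040136, chr7:46104523-46180033) were also both on the minus strand, 3.76 kb apart. There were 0 protein-coding genes between the genes of either pair. Kcnj2 (ENSMUSG00000041695, chr11:111066164-111076821) and Kcnj12 (ENSMUSG00000042529, chr11:61022564-61071131) were on the plus strand of the same chromosome, and Kcnj4 (ENSMUSG00000044216, chr15:79483714-79505241) was on the minus strand of another. Of the exon bases of Abcc9, 158 overlapped 5330439B14Rik on the opposite strand.

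The promoters of the genes whose levels differed most between tissues are printed here, because the neighbours Kcnj8 and Abcc9 followed each other across the groups and Kcnj2 and Kcnj4 did not. RefSeq, on GRCm38.p6, gave an entry for 5 of the 7 genes. Each sequence runs 5′ to 3′ along the strand of the gene over 260 bases, of which 250 lie before the annotated start and 10 after it. They are the windows of Kcnj2 (chr11:111065914-111066173, plus strand), Kcnj4 (chr15:79505232-79505491, minus strand), Kcnj8 (chr6:142571605-142571864, minus strand) and Abcc9 (chr6:142702265-142702524, minus strand). Capitals mark every match, on either strand, to the motifs searched.
Kcnj2: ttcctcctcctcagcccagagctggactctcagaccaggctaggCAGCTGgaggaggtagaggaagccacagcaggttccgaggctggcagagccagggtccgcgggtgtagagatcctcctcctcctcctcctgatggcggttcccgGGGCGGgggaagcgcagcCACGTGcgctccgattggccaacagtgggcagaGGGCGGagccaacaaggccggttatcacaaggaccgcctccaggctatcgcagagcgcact
Kcnj4: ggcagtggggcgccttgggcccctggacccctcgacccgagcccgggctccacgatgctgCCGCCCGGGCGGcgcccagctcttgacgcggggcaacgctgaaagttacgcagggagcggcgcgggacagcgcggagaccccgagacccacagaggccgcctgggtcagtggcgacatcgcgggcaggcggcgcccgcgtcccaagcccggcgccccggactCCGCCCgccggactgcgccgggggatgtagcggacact
Kcnj8: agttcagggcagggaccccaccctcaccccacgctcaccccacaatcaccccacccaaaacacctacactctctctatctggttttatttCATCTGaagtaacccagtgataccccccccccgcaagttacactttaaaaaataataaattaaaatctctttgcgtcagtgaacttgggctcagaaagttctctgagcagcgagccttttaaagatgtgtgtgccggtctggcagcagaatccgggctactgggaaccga
Abcc9: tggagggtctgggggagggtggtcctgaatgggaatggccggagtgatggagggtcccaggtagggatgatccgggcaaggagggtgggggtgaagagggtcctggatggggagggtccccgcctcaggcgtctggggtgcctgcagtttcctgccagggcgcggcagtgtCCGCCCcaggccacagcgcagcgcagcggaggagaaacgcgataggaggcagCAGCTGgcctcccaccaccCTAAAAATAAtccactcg

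The motifs were searched on both strands in all 32851 RefSeq promoter windows of this length. The MEF2 box was found in 2.98% of them, the CArG box in 1.5%, the E-box pattern CANNTG in 67.7%, the GC box GGGCGG in 33.4% and the TATA pattern TATAAA in 12.7%. The Kcnj4 window was the most GC-rich of the 4 at 76.5%, with 36 CG dinucleotides, against medians of 52.3% and 6 over all windows. It held 3 matches to GGGCGG, of which 2 overlap where capitals run over 12 bases, and no match to CANNTG. The Kcnj2 window was 65.4% GC with 15 CG dinucleotides, and held 2 matches to CANNTG and 2 to GGGCGG. The neighbours on chromosome 6 were unlike each other in base composition, at 49.6% GC with 7 CG dinucleotides for Kcnj8 and 66.2% GC with 13 for Abcc9. Kcnj8 held 1 match to CANNTG, and Abcc9 held 1 each to the MEF2 box, CANNTG and GGGCGG. The RefSeq start of the Abcc9 window lies downstream of the GENCODE start of the gene (chr6:142702315). Its MEF2 box and CANNTG matches lie downstream of that GENCODE start too. Neither the CArG box nor TATAAA was matched in any of the 4. A match says only that these letters stand in the window.

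Between 29204390 and 48807435 reads were counted on genes in each library (median 38864900). Levels are given as CPM, the counts of a gene per 1000000 counts of its library, with libraries scaled by the trimmed mean of M values (TMM) over all 72 libraries, and n is 6 for every mean ± SD. Gnb5 followed the labels: it was at 29.2 to 36.9 CPM in Gnb5+/+ atria, 15.5 to 21.4 in Gnb5+/- atria and 1.66 to 2.93 in Gnb5-/- atria, and the groups did not overlap in any of the 5 tissues. Markers of the labelled tissues were present, such as Myl7 at 3139 to 4007 CPM in wild-type atria against 16.2 to 65.4 in ventricles. Gabra6 was at 596 to 652 CPM in wild-type cerebellum. The hippocampal list did not set its tissue apart from heart, with mean sums of 219 CPM in wild-type hippocampus, 344 in ventricles and 218 in atria. It was lower in cerebral cortex (151) and cerebellum (89.1). By their mean correlation with the other libraries of their group, 3 libraries stood apart: Gnb5-/- cerebral cortex replicate 3 (0.9317), Gnb5-/- cerebellum replicate 2 (0.9502) and Gnb5+/- ventricles replicate 4 (0.9736, against 0.9812 to 0.9827 for the other 5). In the same Gnb5-/- cerebellum library the choroid plexus markers summed to 611 CPM, against 1.52 to 5.45 in the rest of that group. Such sums were not particular to it, with up to 1164 in wild-type hippocampus. Of uniquely placed reads, a lower share lay on no annotated gene in all 3 than in the other 5 libraries of each group. It was 6.859% in the cortex library (others 8.32 to 14.881%, lowest in replicate 5) and 8.025% in the cerebellum library (14.016 to 16.579%). In the ventricle library it was 2.851% (4.607 to 4.813%). The cause was not tested. For Kcnj2 and Abcc9, values are given both with and without these libraries. In bulk tissue, fewer cells of a type and less RNA per cell cannot be told apart.

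The wild-type mice set the pattern of the tissues, and the 7 genes fell into distinct profiles. Kcnj2, Kcnj8, Kcnj11 and Abcc9 were higher in both heart chambers than in each of the 3 brain regions. Kcnj4 was close to absent outside hippocampus and cerebral cortex. Kcnj12 was highest in cerebellum, and on the TMM scale Abcc8 was highest in atria and next highest in cerebellum. The plot of each gene's level in all libraries shows these profiles.

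**Figure D1:**
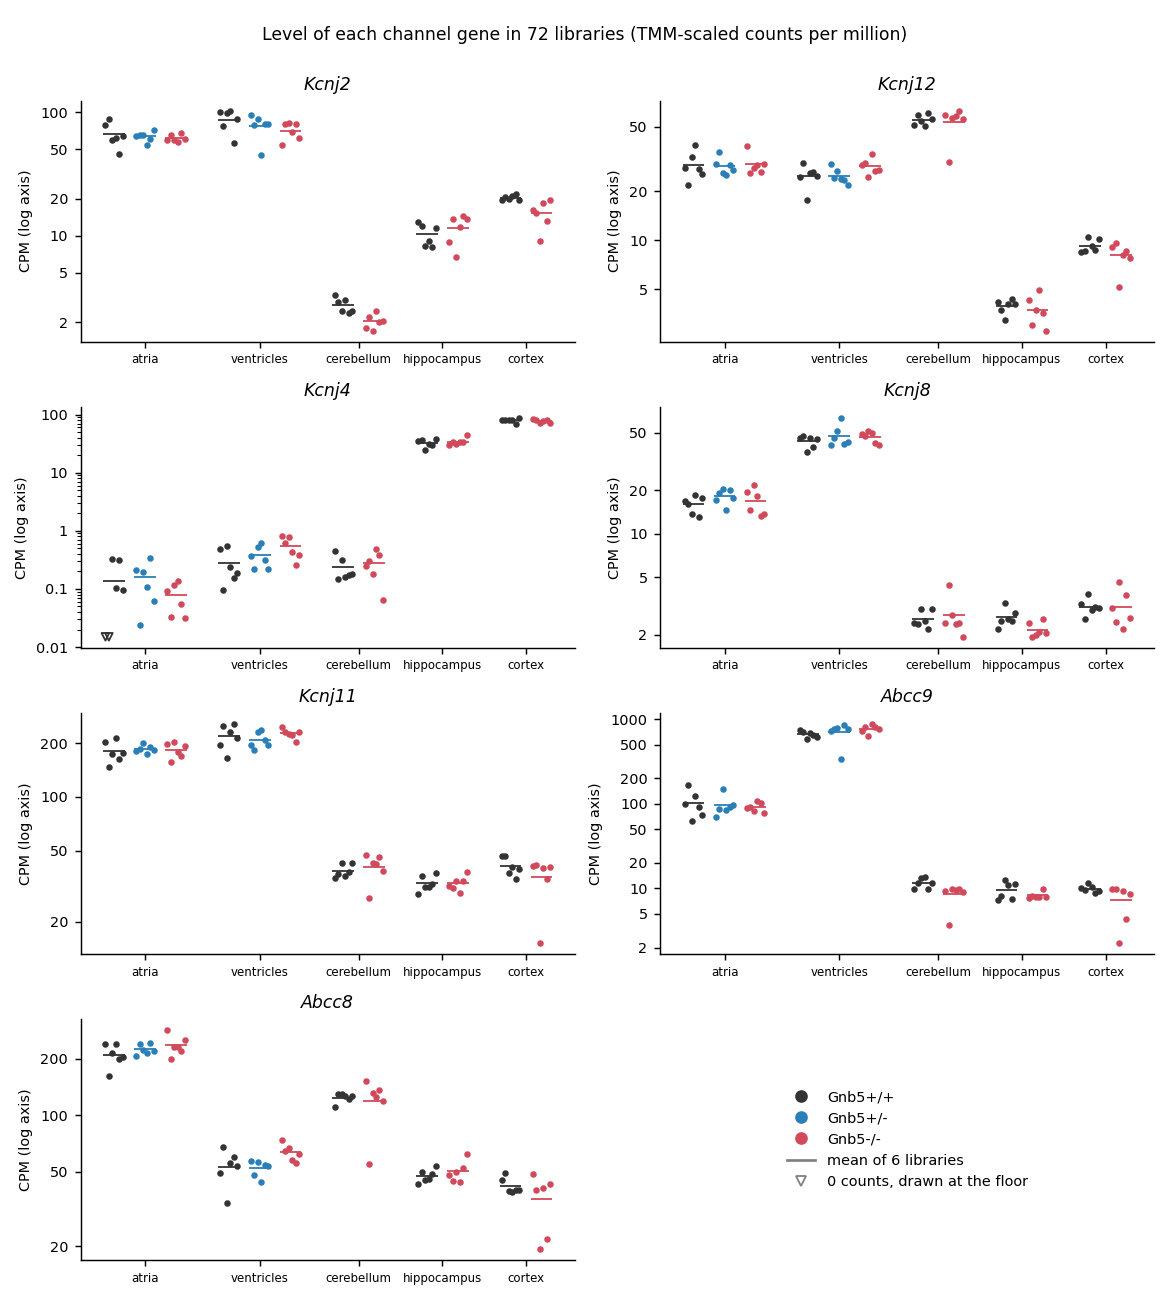
Level of each of the 7 channel genes in CPM (TMM scaling, log axis) by tissue, with 1 point for each of the 72 libraries, colours for the 3 genotypes and a bar at the mean of 6 libraries; triangles are libraries with 0 counts. Abcc9 lay between 582 and 736 CPM in wild-type ventricles and between 7.32 and 13.5 in the wild-type brain regions, and the genotypes overlapped in every panel.

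Kcnj2 was a heart gene with a graded level in brain. In Gnb5+/+ mice it ran from 56.4 to 101 CPM in ventricles (median 92.8, mean 86.6 ± 17.4), from 46 to 87.5 in atria (median 62.7, mean 66.2 ± 14.8), and from 19.4 to 21.6 in cerebral cortex (median 20.2, mean 20.3 ± 0.89). Hippocampus was lower, at 8.13 to 13 CPM (median 10.4), and cerebellum was lowest, at 2.37 to 3.32 CPM (median 2.69). The libraries of the 3 brain regions did not overlap each other or the heart, whereas atria and ventricles overlapped.

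Kcnj12 ran in another order. Wild-type cerebellum held 50.6 to 60.5 CPM (median 55, mean 55.2 ± 3.94), atria 21.9 to 38.3 (median 27.7, mean 28.9 ± 5.7) and ventricles 17.8 to 30 (median 25.4, mean 24.9 ± 3.99). Cerebral cortex held 8.43 to 10.5 CPM (median 8.97) and hippocampus 3.22 to 4.33 (median 4.05). Every cerebellum library was above every library of the other tissues, and only the heart chambers overlapped.

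Kcnj4 was a forebrain gene. It reached 68.4 to 88.4 CPM in wild-type cerebral cortex (median 79.9, mean 79.5 ± 6.43) and 24.3 to 37.2 in hippocampus (median 33.3, mean 32.6 ± 4.93). In cerebellum it rested on 9 to 25 reads a library, in ventricles on 2 to 10 and in atria on 0 to 11, that is at most 0.539 CPM in any wild-type library of these 3 tissues. Cerebral cortex and hippocampus did not overlap, and the order of the other 3 tissues could not be set at this depth.

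Of the KATP pores, Kcnj11 was abundant in heart and even across the brain. It was at 166 to 257 CPM in wild-type ventricles (median 223, mean 219 ± 34.6) and 147 to 215 in atria (median 175, mean 180 ± 25.1). The brain regions lay together, at 34.7 to 46.5 CPM in cerebral cortex (median 39.9), 35.3 to 42.6 in cerebellum (median 37.6) and 28.7 to 37.7 in hippocampus (median 32). Heart and brain did not overlap, while the chambers overlapped, as did the brain regions. Kcnj8 was distinct between the chambers, at 36.6 to 47.4 CPM in ventricles (median 45.7, mean 43.5 ± 4.34) and 13.1 to 18.4 in atria (median 16.4, mean 16 ± 2.1). In the brain regions it stayed between 2.18 and 3.85 CPM in all 18 wild-type libraries.

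The receptors differed most between the heart chambers. Abcc9 was at 582 to 736 CPM in wild-type ventricles (median 668, mean 664 ± 57.3) and 63.1 to 166 in atria (median 94.5, mean 103 ± 37.6). In cerebellum, cerebral cortex and hippocampus its medians were 11.6, 9.85 and 9.63 CPM, with overlapping libraries. Abcc8 took the opposite course in heart, at 161 to 240 CPM in atria (median 209, mean 210 ± 29.5) and 34.2 to 67.6 in ventricles (median 54.4, mean 53.2 ± 11.2). Cerebellum lay between them at 111 to 130 CPM (median 126), and hippocampus (median 47.1) and cerebral cortex (median 39.9) overlapped each other and the ventricles.

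Atria and ventricles of the same 6 wild-type mice differed most clearly in the KATP genes. On the log2 scale of atria over ventricles, Abcc9 was −2.66 (SE 0.16), which is 6.34-fold higher in ventricles, with an adjusted p of 6.21e-15 by edgeR's quasi-likelihood test with Benjamini-Hochberg adjustment over all 19477 genes tested. Kcnj8 was 2.66-fold higher in ventricles (log2 −1.41, SE 0.10, edgeR adjusted p 6.14e-13). Abcc8 was 4.04-fold higher in atria (log2 2.01, SE 0.11, edgeR adjusted p 5.42e-16). For these 3 genes no atrial library overlapped a ventricular one. In all, 5 of the 7 genes passed, where 51.6% of all genes tested did. Of these, 4 were lower in atria, as were 21.8% of all genes, and 1 was higher, as were 29.8%.

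Kcnj2 and Kcnj11 passed narrowly, and their direction depends on the scaling. Both were lower in atria on the TMM scale, Kcnj2 by −0.35 (SE 0.13, edgeR adjusted p 0.0273) and Kcnj11 by −0.25 (SE 0.10, edgeR adjusted p 0.0332), and their groups overlapped. Without the filter on low counts they missed the threshold, with edgeR adjusted p of 0.0555 and 0.0914. Scaled to the library total without TMM, which shifts the median gene by 0.42 towards atria, they stood at 0.02 and 0.14 in the opposite direction. Under that scaling Abcc9 stayed at −2.29, Kcnj8 at −1.03 and Abcc8 at 2.40. Kcnj12 (0.25, edgeR adjusted p 0.0504) and Kcnj4 (−0.91, edgeR adjusted p 0.17) did not pass in the main test, and each passed in 1 alternative.

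**Figure D2:**
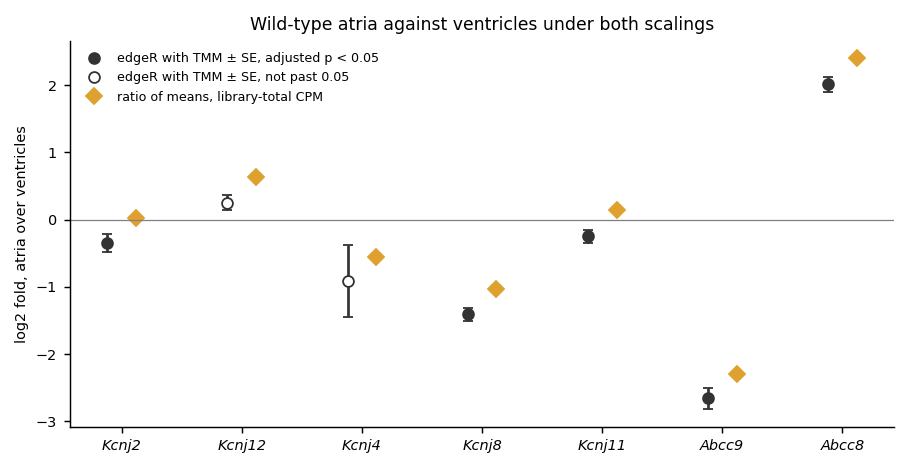
Log2 fold change of the 7 genes in wild-type atria over ventricles, from edgeR with TMM scaling (circles, ± SE, filled where adjusted p was below 0.05) and as the ratio of mean CPM scaled to the library total (diamonds); n is 6 mice. Abcc9 and Kcnj8 lay below 0 and Abcc8 above 0 under both scalings, while Kcnj2 and Kcnj11 changed sign.

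Markers of other cells moved between the chambers too. Of the 7 markers of mural cells (pericytes and smooth muscle, which use Kcnj8 and Abcc9), 6 were lower in wild-type atria and 0 higher by edgeR, with a median log2 fold change of −0.69, and their sum was 533 to 712 CPM in atria against 1209 to 1379 in ventricles. Of the 5 endothelial markers 2 were higher and 3 lower, with sums of 766 to 1001 CPM in atria and 990 to 1192 in ventricles. The 6 cardiomyocyte markers summed to 48776 to 55100 CPM in atria and 58515 to 72589 in ventricles. Neuron markers moved in the direction of Abcc8. Of the 4 neuron markers 3 were higher in atria and 0 lower (median log2 fold change 2.99), with sums of 0.0971 to 5.64 CPM in atria and 0.162 to 0.969 in ventricles. Of the 4 markers of autonomic neurons 3 were tested, 2 were higher and 0 lower (median 2.49), with sums of 14.2 to 27.1 CPM in atria and 2.69 to 7.76 in ventricles. The part of these cells in the differences of Abcc9, Kcnj8 and Abcc8 was not tested.

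Within the atria, Abcc9 was highest in the libraries with the most ventricular muscle RNA. The sum of the ventricular markers Myl2, Myl3 and Irx4 was 1320 CPM in wild-type atria replicate 2, which had the highest Abcc9 level of all 18 atrial libraries at 166 CPM. Wild-type atria replicate 4 had a sum of 975 with Abcc9 at 124 CPM, and Gnb5+/- atria replicate 3 a sum of 683 with Abcc9 at 151 CPM. The other 15 atrial libraries had sums of 42 to 476 and Abcc9 levels of 63.1 to 108 CPM. The mural markers were high in the same 3 libraries, at sums of 712, 683 and 726 CPM against 457 to 703 in the other 15. Wild-type ventricles had marker sums of 13786 to 14468 CPM. These 3 libraries were picked out after their values were seen, and the part of ventricular muscle or mural cells in the atrial Abcc9 level was not tested.

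Between heart and brain most of the genes differed by large factors, among tissues that differed in most genes. Of the 7 genes, 6, 7 and 7 passed in atria against cerebellum, hippocampus and cerebral cortex, where 86.3%, 86.4% and 87% of all genes tested passed. In ventricles against the same regions 6, 6 and 7 passed, with 86.6%, 86.9% and 87.4% of all genes. The largest heart excess was that of Abcc9 in ventricles, which was 67.9-fold over hippocampus (log2 6.09) and 54.4-fold over cerebellum (log2 5.77). Kcnj2 in ventricles was 29.8-fold over cerebellum (log2 4.90), and Kcnj8 differed by 4.00 on the log2 scale in the same contrast. Kcnj4 went the other way, at −9.08 in atria and −8.17 in ventricles against cerebral cortex. Scaling to the library total moves the median gene of ventricles by −1.03 against hippocampus and −1.15 against cerebellum. The ventricular excesses of Abcc9, Kcnj2 and Kcnj8 are thus smaller on that scale.

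Kcnj12 and Abcc8 did not divide heart from brain. Kcnj12 was lower in atria (−0.97) and in ventricles (−1.22) than in cerebellum, and higher in both chambers than in hippocampus and cerebral cortex. Abcc8 was higher in atria than in all 3 brain regions, by 0.72 over cerebellum, and lower in ventricles than in cerebellum by −1.29. Scaling to the library total moves the median gene of atria against cerebellum by −0.73. This is about the size of the Abcc8 excess of atria over cerebellum, which thus rests on the TMM scale. Ventricles and hippocampus did not differ past the threshold in Abcc8 (0.15, edgeR adjusted p 0.205). The smaller excess of ventricles over cerebral cortex (0.34, edgeR adjusted p 0.00497) stood at −0.71 when scaled to the library total, a scaling that moves the median gene of this contrast by −1.05.

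Within the brain the Kir2 genes set the regions apart and the KATP genes mostly did not. Kcnj4 was 314-fold higher in cerebral cortex than in cerebellum (log2 cerebellum over cortex −8.30), 130-fold higher in hippocampus than in cerebellum (−7.02) and 2.41-fold higher in cortex than in hippocampus (−1.27). Kcnj12 was 14.6-fold higher in cerebellum than in hippocampus (3.87) and 6.24-fold higher than in cortex (2.64). Kcnj2 was lower in cerebellum than in hippocampus (−1.85) and cortex (−2.81), and lower in hippocampus than in cortex (−0.96). All these contrasts passed in edgeR without overlap between libraries, in company with 68.3% of all genes for cerebellum against hippocampus, 69.1% for cerebellum against cortex and 33.5% for hippocampus against cortex.

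Among the KATP genes in brain, Abcc8 was higher in cerebellum than in hippocampus (1.44) and cortex (1.63). Kcnj11 was lower in hippocampus than in cerebellum (0.28 for cerebellum over hippocampus, edgeR adjusted p 0.0122) and than in cortex (−0.30, edgeR adjusted p 0.0209). Kcnj8 and Abcc9, the neighbours on chromosome 6, passed in none of the 3 contrasts, with edgeR adjusted p between 0.0803 and 0.909. In all, 5, 4 and 4 of the 7 genes passed in cerebellum against hippocampus, cerebellum against cortex and hippocampus against cortex. The mural markers, which summed to 1209 CPM or more in wild-type ventricles, summed to between 127 and 225 CPM in the wild-type brain regions.

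Dividing by exonic length in kb makes the genes comparable with each other within a library. On the scale of CPM per kb, Abcc9 (mean 79.4) and Kcnj11 (59.6) were the most abundant of the 7 in wild-type ventricles, followed by Kcnj8 (17.1) and Kcnj2 (15.9). In atria the order was Kcnj11 (48.9), Abcc8 (25.9), Abcc9 (12.3) and Kcnj2 (12.2). In cerebellum Kcnj12 (20.1) led Abcc8 (15.4) and Kcnj11 (10.5), an order that turned with the longest transcript as the length (22.4 for Kcnj12 and 25.5 for Abcc8), while Kcnj4 led in hippocampus (15.1) and cerebral cortex (36.9).

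As shares of each role's CPM per kb, which do not depend on the scaling between libraries, the make-up changed from tissue to tissue. Of the 2 receptors, Abcc8 made up 68.3% on average in wild-type atria (50 to 77.8% in the 6 libraries), 7.61% in ventricles (5.73 to 8.94%) and 91.8% in cerebellum (90.7 to 92.9%). In hippocampus and cerebral cortex it made up 83.7% and 81.3%. Of the 2 pores, Kcnj11 held between 88.6% and 91.2% on average in atria and brain and 77.6% in ventricles (74.7 to 81.8%). Receptors thus switched between chambers while the same pore gene led in both.

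The Kir2 shares split the tissues into 3 kinds. In heart, Kcnj2 and Kcnj12 shared the transcripts, with Kcnj2 at 53.2% in atria and 62.9% in ventricles. In cerebellum Kcnj12 made up 97% and Kcnj2 2.47%. Kcnj4 made up 81.9% in hippocampus and 83.8% in cerebral cortex, against 0.544% or less in the other 3 tissues. These are shares of transcripts, and the length used for each gene enters them.

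**Figure D3:**
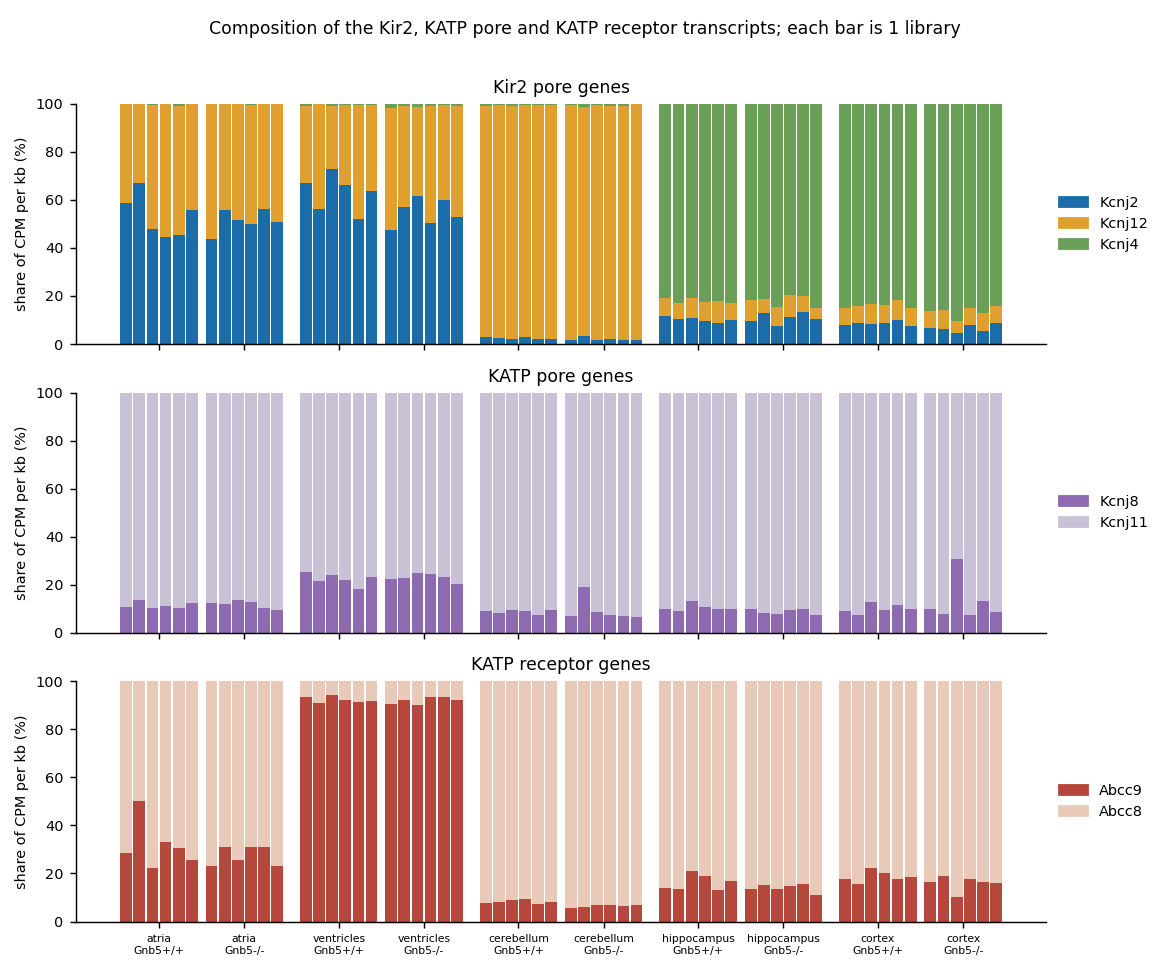
Share (%) of CPM per kb held by each gene among the Kir2 pores (top), KATP pores (middle) and KATP receptors (bottom), with 1 bar for each library of the Gnb5+/+ and Gnb5-/- groups in 5 tissues. Abcc9 took 90.1% or more of the receptor share in these ventricle libraries and the minor share in the other tissues, apart from 1 wild-type atria library at 50%.

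The study centred on heart function and rhythm in Gnb5-/- mice and on patients with GNB5 variants. Its RNA-seq part asked what the loss of Gnb5 changes in each tissue. For these genes, 0 of 7 passed the threshold in any of the 9 comparisons of genotypes by edgeR, and here DESeq2 also called 0. The paper, which used DESeq2 at an adjusted p below 0.05, lists Kcnj2 among its differentially expressed genes in Gnb5-/- cerebellum. That call was not met here. The paper's p-value for Kcnj2 lay close to its threshold. Its list of cerebellum genes was also longer than those made here, where edgeR called 14 genes and DESeq2 62. At an unadjusted p below 0.05 there were 6 of 60 tests, and over all genes the share at that level ran from 4.78% to 8.79% in the 9 comparisons. Over all genes tested, Gnb5-/- against Gnb5+/+ called 0.253% in atria, 0.188% in ventricles, 0.0817% in cerebellum, 0.165% in hippocampus and 0.0557% in cerebral cortex. Of the 34 tests of Gnb5-/- against Gnb5+/+, 33 had a log2 fold change within 0.5 of 0, with SEs of 0.07 to 0.42 (median 0.13). Kcnj4 was too low in atria to be tested.

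**Figure D4:**
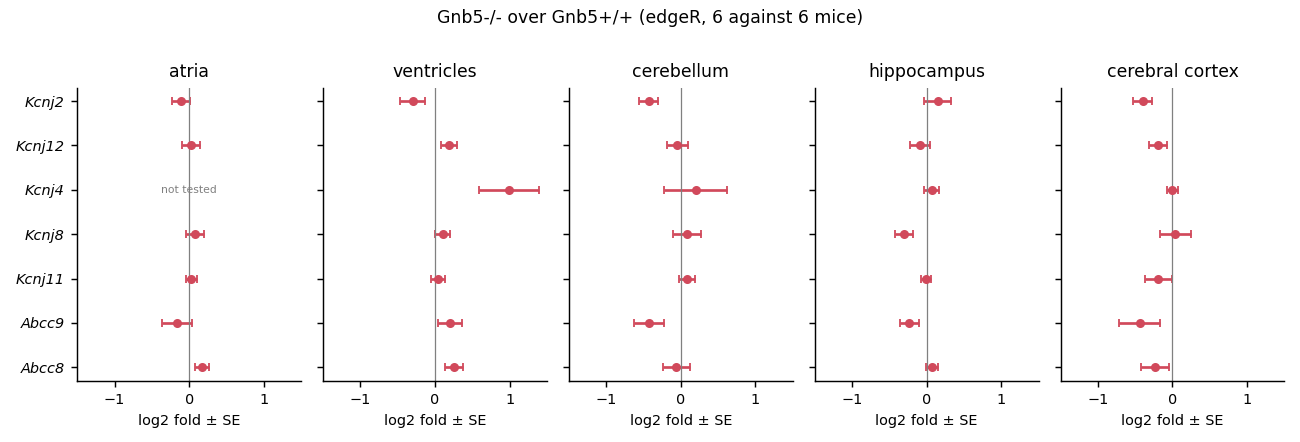
Log2 fold change of Gnb5-/- over Gnb5+/+ (edgeR, ± SE, 6 against 6 mice) for the 7 genes in 5 tissues. All points lay within 0.5 of 0 except Kcnj4 in ventricles (0.99), which rested on 2 to 23 reads a library, and 0 of 34 passed the threshold.

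In the heart of Gnb5-/- mice, the 6 genes other than Kcnj4 had log2 fold changes from −0.30 to 0.25 against the wild type. Kcnj2, the main pore of the ventricular resting current, was at 53.8 to 80.8 CPM in Gnb5-/- ventricles (median 74.5) against 56.4 to 101 in the wild type, a log2 fold change of −0.30 (SE 0.17, edgeR adjusted p 1). Abcc8 was at 55.5 to 73.8 CPM in Gnb5-/- ventricles (median 63.2) against 34.2 to 67.6, with 0.25 (SE 0.12, unadjusted p 0.0514 by edgeR). Abcc9 was at 629 to 883 CPM (median 786) against 582 to 736, with 0.20 (SE 0.16). Each of these groups overlapped. Kcnj4 in ventricles had an unadjusted edgeR p of 0.0216 and an adjusted p of 0.87, on 5 to 23 reads in Gnb5-/- libraries and 2 to 10 in the wild type.

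In atria the knockout log2 fold changes of the 6 tested genes ran from −0.16 to 0.17, with 0 of them at an unadjusted p below 0.05. Abcc9, at 78.5 to 108 CPM in Gnb5-/- atria against 63.1 to 166, had the lowest value (−0.16, SE 0.20), which was 0.04 without wild-type atria replicate 2, the library with the most ventricular marker RNA. Abcc8, at 199 to 285 CPM against 161 to 240, had the highest (0.17, SE 0.09). The median over the 6 genes was 0.02, against 0.00 over all genes tested.

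In the brain the lowest unadjusted p-values were those of Kcnj2. Its Gnb5-/- cerebellum libraries held 1.71 to 2.46 CPM (median 2.04) against 2.37 to 3.32 in the wild type, and 5 of 6 were below every wild-type library. The log2 fold change was −0.43 (SE 0.13, edgeR p 0.00627 unadjusted and 0.583 adjusted). In Gnb5-/- cerebral cortex Kcnj2 was at 9.15 to 19.4 CPM (median 15.6) against 19.4 to 21.6, again with 5 of 6 below every wild-type library, and a log2 fold change of −0.40 (SE 0.13, edgeR p 0.0101 unadjusted and 0.474 adjusted). Hippocampus stood on the other side of 0, at 6.78 to 14.5 CPM (median 12.8) against 8.13 to 13, with 0.15 (SE 0.18). None of these passed the threshold over all genes here, whereas the paper lists Kcnj2 as differentially expressed in cerebellum.

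How far the Kcnj2 values rest on single libraries differed between the regions. In cerebellum the log2 fold change was −0.46 (edgeR adjusted p 0.209) without Gnb5-/- replicate 2, which stood apart. In cerebral cortex it was −0.31 without replicate 3, which stood apart, and −0.24 (edgeR adjusted p 0.911) without replicates 3 and 5, the latter left out after its low Abcc9 and Abcc8 levels were seen.

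Abcc9 was the other gene with lower values in Gnb5-/- brain. In cerebellum it was at 3.74 to 9.92 CPM (median 9.52) against 9.74 to 13.5, with 4 of 6 Gnb5-/- libraries below every wild-type one and a log2 fold change of −0.43 (SE 0.20, edgeR p 0.0474 unadjusted and 0.583 adjusted). Its lowest value came from Gnb5-/- replicate 2, which stood apart, and without that library the fold change was −0.28 (SE 0.09, edgeR adjusted p 0.261). In cerebral cortex it was at 2.27 to 9.84 CPM (median 8.87) against 8.91 to 11.6, with −0.44 (SE 0.27, edgeR adjusted p 0.474), and −0.10 without replicates 3 and 5. In the 2 brain regions the size of the Abcc9 difference thus moved by more than 1.5-fold with those libraries. Neither the mural list nor any other marker list had a gene past the threshold in Gnb5-/- against Gnb5+/+ by edgeR. The paper, with DESeq2, reports Tnnt2, a cardiomyocyte marker here, as higher in Gnb5-/- ventricles.

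**Figure D5:**
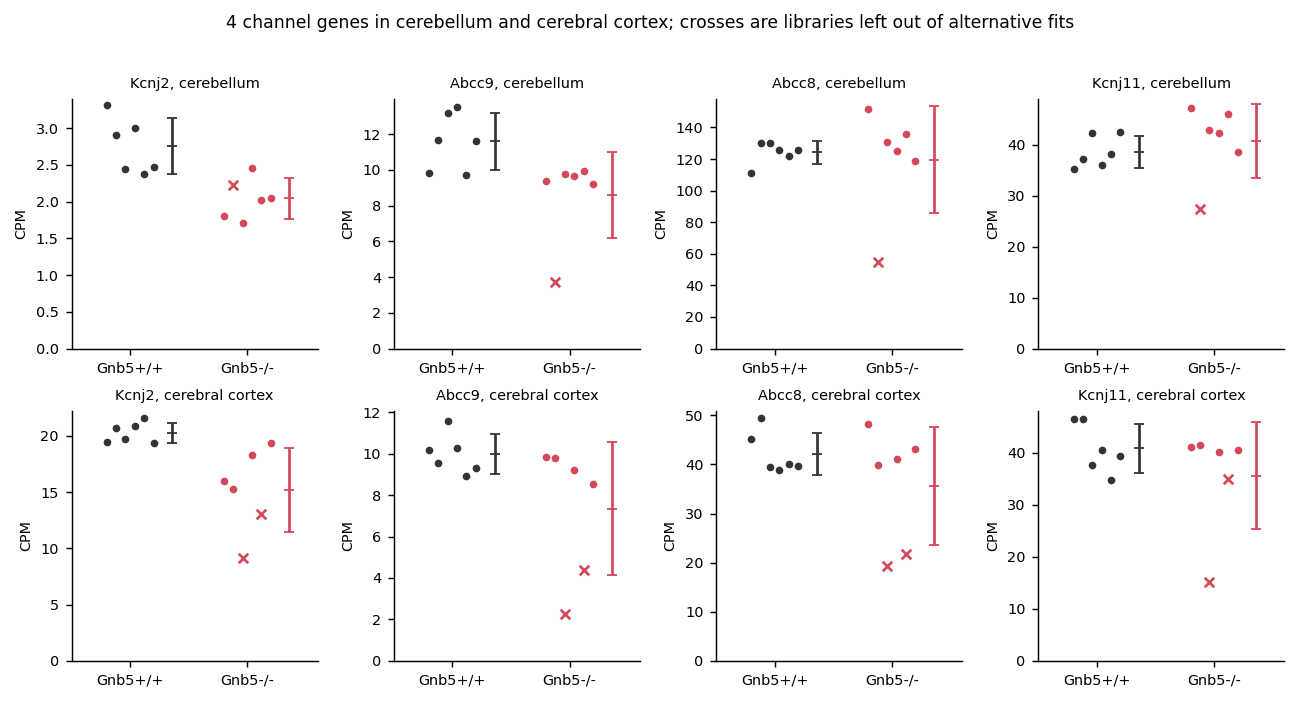
CPM of Kcnj2, Abcc9, Abcc8 and Kcnj11 in each cerebellum (top) and cerebral cortex (bottom) library of Gnb5+/+ and Gnb5-/- mice, with the mean ± SD of 6 beside the points; crosses are the Gnb5-/- libraries left out in alternative fits (cerebellum replicate 2, cortex replicates 3 and 5). The low points of Abcc9 and Abcc8 are these libraries, whereas Kcnj2 in cerebellum is spread over the whole group.

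Kcnj8 in hippocampus was the remaining test with an unadjusted p below 0.05, at 1.94 to 2.57 CPM in Gnb5-/- mice (median 2.06) against 2.19 to 3.33, with a log2 fold change of −0.30 (SE 0.12, edgeR adjusted p 0.579). The choroid plexus markers had a median of −2.20 in the same comparison, with sums of 26 to 216 CPM in Gnb5-/- and 25 to 1164 in wild-type hippocampus, and the 4 cardiomyocyte markers tested one of −2.21, none of them past the threshold. Their part in the Kcnj8 value was not tested. The main KATP pore of brain, Kcnj11, was at 29.1 to 38 CPM in Gnb5-/- hippocampus against 28.7 to 37.7, with −0.01 (SE 0.07). The leading forebrain Kir2 gene, Kcnj4, was at 72.5 to 83.1 CPM in Gnb5-/- cortex (median 78.7) against 68.4 to 88.4, a ratio of 0.997 (SE 0.07 on the log2 scale). The median over the 7 genes was −0.05 in cerebellum, −0.01 in hippocampus and −0.19 in cerebral cortex, against 0.00, 0.00 and 0.01 over all genes tested. Without Gnb5-/- cerebellum replicate 2 the cerebellum median was 0.07, on the other side of 0. In that fit 3 of the 7 genes had an unadjusted p below 0.05 by edgeR. These were Kcnj2, Abcc9 and Kcnj11, the last at 0.17 (SE 0.06, edgeR p 0.0189 unadjusted and 0.329 adjusted). Without replicates 3 and 5 the cortex median was −0.10.

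Loss of 1 allele was measured in heart only. Of the 6 genes tested in atria and 7 in ventricles, 0 passed in Gnb5+/- against Gnb5+/+, where 0.0124% and 0.0202% of all genes did, and 0 had an unadjusted p below 0.05 in edgeR. DESeq2 called 0 as well. Kcnj2 was at 54 to 72.2 CPM in Gnb5+/- atria (median 64.5) and 45.3 to 94.6 in Gnb5+/- ventricles (median 80). Abcc9 was at 335 to 857 CPM in Gnb5+/- ventricles (median 768), and the lowest value was that of replicate 4, which stood apart. With that library the log2 fold change over the wild type was 0.09 (edgeR p 0.568 unadjusted and 0.995 adjusted), and without it 0.24 (SE 0.08, edgeR p 0.00755 unadjusted and 0.708 adjusted). The same library held the lowest Kcnj2 level, and the log2 fold change of Kcnj2 was −0.16 with it and −0.04 without it.

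Gnb5-/- against Gnb5+/- called 0 of the genes in both chambers, against 0.0494% of all genes in atria and 0.0874% in ventricles. Abcc8 in ventricles, at 44.2 to 56.7 CPM in Gnb5+/- mice, was the 1 gene with an unadjusted p below 0.05 (0.0317 by edgeR, 0.512 adjusted), with a log2 fold change of 0.27 (SE 0.12). Without Gnb5+/- replicate 4, which stood apart, it was 0.22 (edgeR p 0.0698 unadjusted and 0.431 adjusted), and 0 of the 7 genes had an unadjusted p below 0.05. Wild-type mice overlapped both groups. These comparisons share libraries with those against the wild type.

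Whether the knockout acted differently in 2 tissues was tested as an interaction within the same mice. For atria against ventricles 0 of 6 genes passed, where 0.00622% of all genes did. For cerebellum against hippocampus, cerebellum against cerebral cortex and hippocampus against cerebral cortex 0 of 7 passed each time, where 0.0258%, 0.0103% and 0% of all genes did. At an unadjusted p below 0.05 there were 2 of 27 tests in edgeR, where the share of all genes ran from 3.72% to 4.57%, and DESeq2 called 0. Both were Kcnj2, whose knockout difference was 0.56 lower in cerebellum than in hippocampus (log2 −0.56) and 0.56 higher in hippocampus than in cortex. Without the Gnb5-/- libraries left out above these values were −0.59 and 0.46, with edgeR adjusted p of 0.257 and 0.573. With all libraries, the lowest adjusted p of any of the 7 genes was 0.641 in edgeR. Heart and brain effects were not set against each other in 1 test.

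Relatives and partners of these channels were not called between genotypes either. Kcnj14, the remaining Kir2 pore gene (Kir2.4), was low throughout, with wild-type means of 0.421 CPM in atria, 1.93 in ventricles, 0.273 in cerebellum, 1.69 in hippocampus and 1.66 in cerebral cortex. It was lower in atria than in ventricles (log2 −2.22, edgeR adjusted p 1.52e-05), and its knockout value in atria was −1.01 (SE 0.47, edgeR adjusted p 0.599). Of the 10 other inward rectifier genes, 5 were tested in heart and 8 in brain, and of 17 partner genes (scaffolds such as Dlg4, anchors, and enzymes of high-energy phosphate) 15 to 17. Both edgeR and DESeq2 called 0 of them in every comparison of genotypes and every interaction. Between wild-type atria and ventricles, 2 inward rectifier genes were higher and 1 lower of 9 tested, and of the 17 partners 6 were higher and 7 lower, where 29.8% of all genes tested were higher and 21.8% lower.

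Across the 12 group means, each gene had close companions among the 20467 genes compared. By Pearson's r of log2 CPM, Abcc9 was most like Ak3 (0.9991), Akap1 (0.9985) and Lgals4 (0.9981), and Kcnj11 most like Steap4 (0.9988), Ahnak (0.9986) and Xdh (0.9985). For Kcnj2, the genes named are Sorbs2 (0.9949) and Ptafr (0.9937). Kcnj8 was most like Fastk (0.9979), Suclg2 (0.9975) and Gm12002 (0.9975). Such values are high for many genes because the groups share tissues, mice and the large step from heart to brain.

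Kcnj4 was most like Gm49593 (0.9977), a transcript annotated at chr15:79480227-79482674 on the same strand just beyond its own end, followed by Dlx6 (0.9940) and Cfap54 (0.9918). Reads past the annotated end of Kcnj4 could be counted in Gm49593, which was not tested. Kcnj12 was most like 4930405A21Rik (0.9884), Rexo5 (0.9836) and Ntn4 (0.9829), and Abcc8 most like Cemip2 (0.9862), Cdon (0.9853) and Gm47117 (0.9817). Between the genes themselves, r was 0.99 for the neighbours Kcnj8 and Abcc9 and 0.42 for the neighbours Kcnj11 and Abcc8. The receptors had an r of 0.15 with each other, and Kcnj12 and Kcnj4 one of −0.88. These values describe 12 groups from 18 mice and were given no test.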

How the data were processed

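Total RNA of whole tissues was made into stranded, ribosome-depleted libraries and sequenced as single-end reads. The deposited values are raw counts of reads per gene, which the authors made from adapter-trimmed reads; the submitters' processing notes list cutadapt 1.8, STAR 2.5.3a, HTSeq 0.9.1 and GRCm38. The 5 rows of each file that name no gene were left out; reads on no annotated gene were 2.851 to 6.741% of uniquely placed reads in heart and 6.859 to 16.974% in brain. Identifiers were matched to GENCODE M21 (53620 of 53715).

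The main test was edgeR 4.0.16 (quasi-likelihood, TMM factors, filterByExpr with a count minimum of 10, R 4.3.3) with Benjamini-Hochberg adjustment over all genes tested and a threshold of 0.05, on genotype within each tissue, on tissue in the 30 wild-type libraries, and on the interaction of both with the mouse as a block. DESeq2 1.42.0 was the alternative tool, and the other alternatives were other filters and scalings, blocks and left-out libraries. Replicates are separate mice, so p-values measure the spread between mice. Libraries of 1 mouse deviated together across tissues (r of 0.078 to 0.488), and the pairing of tissues comes from the mouse numbers in the labels. On simulated counts at the atria's depth, edgeR recovered 165 of 200 changed genes among 16181. The changes set were 1 or 2 on the log2 scale in either direction, with 72 genes recovered at 1 and 93 at 2. Smaller changes, the size of most knockout values here, were not simulated. Levels per kb use the union of a gene's exons. The 7 genes, the gene lists and the markers were chosen with earlier results of these data known. Besides the 7 genes and Gnb5, the text names Kcnj14, any list gene that passed in a comparison of genotypes and, for each gene, the 3 genes most like it, of which 1 is not reported here.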

Additional observations from a re-analysis of the deposited data

Results flagged for a closer look

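Among 84 combinations of a gene and a group, 11 had a highest or lowest library farther from the others than Dixon's 95% limit for 6 samples, where chance at 1 in 20 would give 4.2. Of these, 7 were in the 3 libraries that stood apart from their groups.

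In Gnb5-/- cerebellum replicate 2, Kcnj12 was at 30.3 CPM (55.8 to 62 in the other 5) and Abcc8 at 54.9 (119 to 152). In the same library Abcc9 was at 3.74 (9.19 to 9.92) and Kcnj8 at 4.43 (1.94 to 2.75). Kcnj8 was thus the flagged gene that lay above its group there. Without passing Dixon's limit, Kcnj8 also lay above its group in Gnb5-/- cerebral cortex replicate 3 (4.66 CPM, others 2.18 to 3.75). The same held in Gnb5+/- ventricles replicate 4 (63.5 CPM, others 40.8 to 51). Abcc9 and Abcc8 lay below the rest of the group in each of these libraries. In Gnb5+/- ventricles replicate 4, Kcnj2 was at 45.3 CPM (78.5 to 94.6) and Abcc9 at 335 (726 to 857). In Gnb5-/- cerebral cortex replicate 3, Kcnj11 was at 15.2 CPM (34.9 to 41.6).

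The other 4 were in libraries that did not stand apart over all genes. Kcnj12 was at 38.2 CPM in Gnb5-/- atria replicate 1 (26.1 to 29.4), Kcnj4 at 43.6 in Gnb5-/- hippocampus replicate 6 (30.5 to 34), Abcc9 at 151 in Gnb5+/- atria replicate 3 (70.1 to 95.7) and Abcc9 at 9.9 in Gnb5-/- hippocampus replicate 5 (7.8 to 8.25). What set these libraries apart was not tested.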

How the results depend on the processing

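The count of called channel genes stayed within 1.5-fold of the main count in all 192 alternatives, and was 0 in all 142 alternative contrasts of genotypes and interactions, where the lowest adjusted p of any of the 7 genes was 0.209 (edgeR or DESeq2). Of the log2 fold changes, 1356 alternatives kept direction and side of the threshold, 46 reversed, 43 moved by more than the spread (all under scaling to the library total), 7 passed newly and 2 no longer passed; the cause was not tested. In wild-type atria against ventricles, scaling to the library total gave 0.02 for Kcnj2 and 0.14 for Kcnj11, and −0.71 for Abcc8 in ventricles against cortex. Without the filter Kcnj2 and Kcnj11 lost their calls (−0.32 and −0.22) and Kcnj12 gained one (0.28, adjusted p 0.0429 in edgeR). DESeq2 called Kcnj4 in atria against ventricles (−0.97) and cerebellum (−0.83) and, like edgeR with RLE factors, Kcnj8 in cerebellum against cortex (−0.27). For Kcnj8 in cerebellum against hippocampus those settings gave −0.03 and −0.04. Fitting only 2 tissues called Abcc9 in cerebellum against cortex (0.26) and Abcc8 in hippocampus against cortex (0.20).

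The other reversals were of values that were not called. Kcnj12 in Gnb5+/- against Gnb5+/+ ventricles was −0.0024 in DESeq2 and −0.01 without the filter. Kcnj8 in Gnb5-/- cortex was −0.01 with the replicate block and −0.28 without replicates 3 and 5, which gave 0.03 for Abcc8. Without 3 brain libraries, chosen after seeing the data, the interactions were −0.13 for Kcnj2 and −0.20 for Abcc9 in cerebellum against cortex, and −0.02 for Kcnj11 and −0.14 for Abcc9 in hippocampus against cortex; Kcnj2 in cerebellum against cortex was −0.03 with no replicate block.

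Leaving out 1 replicate at a time, Gnb5-/- against Gnb5+/+ ranged in atria from −0.26 to 0.04 for Abcc9, −0.02 to 0.08 for Kcnj11, −0.06 to 0.12 for Kcnj12 and −0.01 to 0.14 for Kcnj8, and in ventricles from −0.02 to 0.09 for Kcnj11. In cerebellum the ranges were −0.13 to 0.09 for Abcc8, −0.09 to 0.07 for Kcnj12, −0.03 to 0.47 for Kcnj4 and −0.12 to 0.16 for Kcnj8. In hippocampus they were −0.01 to 0.10 for Abcc8, −0.06 to 0.03 for Kcnj11 and −0.02 to 0.11 for Kcnj4, and in cortex −0.04 to 0.02 for Kcnj4 and −0.16 to 0.13 for Kcnj8. Without Gnb5+/- ventricles replicate 4, left out after seeing the data, Abcc8 in Gnb5+/- against Gnb5+/+ was 0.02, and Abcc9 and Kcnj8 in Gnb5-/- against Gnb5+/- were −0.04 and 0.05.

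Over all genes, Gnb5-/- against Gnb5+/+ called 41 in atria (113 in DESeq2, 20 with 2 genotypes only, 24 to 62 leaving out 1 replicate), 28 in ventricles (62 in DESeq2, 17 to 41), 14 in cerebellum (62 in DESeq2, 9 to 62, with 62 without Gnb5-/- replicate 2), 29 in hippocampus (110 in DESeq2, 21 to 37) and 10 in cortex (35 in DESeq2, 6 with at least 10 counts in every library, 8 to 22, with 22 without Gnb5-/- replicate 3 and 26 without replicates 3 and 5). Gnb5+/- against Gnb5+/+ called 2 in atria and 3 in ventricles (8 in atria in DESeq2, 1 in ventricles with 2 genotypes only), and Gnb5-/- against Gnb5+/- 8 and 13 (25 and 69 in DESeq2, 13 in atria with 2 genotypes only). The interactions called 1, 5, 2 and 0 (13, 8, 20 and 3 in DESeq2, 135 for atria against ventricles without the filter, 4 for cerebellum against cortex with no replicate block, and 18, 15 and 3 in brain without the 3 libraries).

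Replicate numbers shared between genotypes join different animals, and their deviations correlated at −0.242 to 0.138, with 1 of 30 pairs over 0.1. With the replicate block, cerebellum called 5 genes, hippocampus 19, cortex 6 and Gnb5+/- against Gnb5+/+ ventricles 0, with 0 of the 7 channel genes throughout. The mouse block changed 0 calls of the channel genes between tissues. With the longest transcript as the length, 32 levels per kb and 37 shares moved by more than 1 SD.

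Depth limits Kcnj4 in atria, ventricles and cerebellum, where it rested on 0 to 25 reads a library. With 6 mice a group, even changes of the channel genes of several SEs could miss the threshold over all genes. Kcnj2 in cerebellum, without Gnb5-/- replicate 2, was at −0.46 (SE 0.13) with an edgeR adjusted p of 0.209. Strand was kept in the library kit, but the setting used in counting is not given in the sources used here.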

Other observations

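The receptor make-up of Gnb5-/- cerebellum was looked at after its values were seen, so it has no test. Abcc9 held 5.62 to 6.98% of the receptor transcripts per kb in the 6 Gnb5-/- cerebellum libraries and 7.14 to 9.35% in the 6 wild-type ones, and the groups did not overlap. Gnb5-/- cerebellum replicate 2, which stood apart, lay within the Gnb5-/- range, with the lowest Abcc9 level of its group. In the other 4 tissues the shares of the Gnb5-/- and Gnb5+/+ libraries overlapped.

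Kcnj14 was at 1.66 CPM in wild-type cerebral cortex and 2.28 in Gnb5-/- cortex on average (log2 0.49, SE 0.19, edgeR p 0.0217 unadjusted and 0.474 adjusted). In atria, Gnb5-/- mice held 0.209 CPM and Gnb5+/- mice 0.535 (log2 −1.38, SE 0.46, edgeR p 0.00678 unadjusted and 0.753 adjusted), on 5 to 10 reads in Gnb5-/- libraries.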
